A study of Mus musculus with 32 samples.

Results

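The transcripts of 10 genes that restrain mTORC1 or carry its signal to translation were followed in calf muscle, liver and hypothalamus of mice with a muscle-specific deletion of Cox10, which is needed for the assembly of cytochrome c oxidase. The set holds the REDD pair Ddit4 and Ddit4l, the sestrins Sesn1, Sesn2 and Sesn3, Deptor, the CASTOR pair Castor1 and Castor2, and the 4E-binding proteins Eif4ebp1 and Eif4ebp2. They were taken by symbol from the 55401 gene identifiers of the count files, where all 10 were found with 1 identifier each. The members were chosen with earlier results of these data known, so none of their calls is blind to the data. The study had also named Ddit4 and Sesn2 from these same muscle libraries, so the direction of both in muscle is not independent evidence.

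COX10 KO mice carried homozygous floxed Cox10 alleles and a Cre recombinase knocked into the Myl1 locus, which drives it in skeletal muscle, and liver and hypothalamus are tissues where this Cre is not driven. All animals were C57BL/6 and 200 days old, and the alleles of the CTL mice are not given in the sources used here. Muscle (gastrocnemius and soleus) and liver each had 6 CTL and 6 COX10 KO libraries, labelled as 3 females and 3 males per genotype, and hypothalamus had 4 and 4, all labelled male. The labels do not tie libraries to separate mice across tissues or state how replicates were taken, so p-values measure the spread between these libraries.

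The kinase complex mTORC1 couples amino acids, growth factors and energy to protein synthesis. REDD1, encoded by Ddit4, and REDD2, encoded by Ddit4l, act through the TSC complex, which holds the GTPase Rheb inactive. Sestrins and CASTOR proteins bind GATOR2, from which leucine releases Sestrin2 and arginine releases CASTOR1. DEPTOR binds mTOR itself, and 4E-BPs hold the cap-binding protein eIF4E until mTORC1 phosphorylates them.

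Depth, as total counts in a library, was 434494 to 11404800 for muscle, 674311 to 16044634 for liver and 3526613 to 22321322 for hypothalamus. The shallowest library, muscle CTL 2, also had the highest summed adipocyte markers (5503 CPM against 263 to 1122 CPM in the other CTL muscle libraries) and hepatocyte markers (1902 CPM). In liver, 2 CTL libraries (numbers 1 and 4) went against their labelled sex. The mean level of Cox10 was 109 CPM in muscle of CTL mice and 113 CPM in that of COX10 KO mice (edgeR adjusted p = 0.907), and reads from the 3′ end of its transcript do not check the deletion. Each tissue held the markers of its label: muscle fibre markers summed to 32567 to 92369 CPM in muscle, hepatocyte markers to 39310 to 158342 CPM in liver and neuropeptides to 675 to 1862 CPM in hypothalamus. Choroid plexus markers in hypothalamus summed to 1255 to 2836 CPM in CTL and 3190 to 5296 CPM in COX10 KO (0 of 5 called by edgeR). In liver, muscle fibre markers summed to 1.29 to 24.9 CPM in CTL and 0.423 to 419 CPM in COX10 KO. The part of such admixture in the members' levels was not tested.

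RefSeq promoter windows of GRCm38.p6, from 250 bases before to 50 bases after a start site, were at hand for 8 of the 10 genes. Those of 4 genes called in muscle are shown 5′ to 3′ in the direction of transcription, from 2 that rose and 2 that fell. Capitals mark CCAAT boxes (CCAAT or ATTGG), GC boxes (GGGCGG or CCGCCC) and TATA boxes (TATAAA or TTTATA).
Ddit4, chr10:59951721-59952020, minus strand: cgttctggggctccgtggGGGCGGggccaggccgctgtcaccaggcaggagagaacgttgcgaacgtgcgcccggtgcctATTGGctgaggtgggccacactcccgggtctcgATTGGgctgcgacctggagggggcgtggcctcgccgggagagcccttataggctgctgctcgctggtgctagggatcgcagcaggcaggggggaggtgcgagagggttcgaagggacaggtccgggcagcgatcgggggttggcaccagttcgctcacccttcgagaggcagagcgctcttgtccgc
Sesn2, chr4:132510407-132510706, minus strand: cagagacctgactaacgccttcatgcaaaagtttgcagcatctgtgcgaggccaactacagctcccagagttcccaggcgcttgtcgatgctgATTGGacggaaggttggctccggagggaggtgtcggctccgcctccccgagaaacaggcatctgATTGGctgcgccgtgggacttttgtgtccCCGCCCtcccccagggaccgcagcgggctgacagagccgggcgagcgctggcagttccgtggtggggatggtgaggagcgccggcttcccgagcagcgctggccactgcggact
Ddit4l, chr3:137623422-137623721, plus strand: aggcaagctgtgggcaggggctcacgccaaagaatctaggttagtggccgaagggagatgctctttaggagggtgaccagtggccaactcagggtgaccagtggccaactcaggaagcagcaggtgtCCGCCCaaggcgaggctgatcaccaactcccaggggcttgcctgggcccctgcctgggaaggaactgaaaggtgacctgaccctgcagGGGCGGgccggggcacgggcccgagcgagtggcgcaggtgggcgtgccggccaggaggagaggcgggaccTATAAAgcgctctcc
Castor2, chr5:134099498-134099797, plus strand: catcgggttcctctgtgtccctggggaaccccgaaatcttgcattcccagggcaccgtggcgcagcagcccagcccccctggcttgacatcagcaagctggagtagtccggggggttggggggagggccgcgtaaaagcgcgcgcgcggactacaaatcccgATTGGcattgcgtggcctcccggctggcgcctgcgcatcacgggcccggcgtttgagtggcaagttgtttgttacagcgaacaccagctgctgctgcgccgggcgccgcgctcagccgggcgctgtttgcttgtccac
The windows of Ddit4 and Sesn2, which rose, each held 2 CCAAT boxes and 1 GC box. The window of Ddit4l held 2 GC boxes and, 36 bases after the start site, a TATA box, and that of Castor2 held 1 CCAAT box. Genes not called in muscle held such boxes too. The window of Sesn3 held 4 CCAAT and 2 GC boxes, and each of the 2 windows of Sesn1 held 1 CCAAT and 4 GC boxes. Those of Castor1 and Eif4ebp2 each held 2 GC boxes and no CCAAT box. Of all 32851 windows of this length, 37.4% held at least 1 CCAAT box, 35.7% at least 1 GC box and 13.6% at least 1 TATA box on either strand. The C/EBP-ATF response element core (TGATGCAA or TTGCATCA, in 0.895% of all windows) and the E-box CACGTG (7.15%) were in the window of none of the 8 genes, and a FoxO core (GTAAACA or TGTTTAC, 3.65%) was in 1 of the 2 windows of Sesn1. These matches describe letters only.

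In muscle, Ddit4, Sesn2 and Eif4ebp1 rose, Ddit4l, Deptor and Castor2 fell, and Sesn1, Sesn3, Castor1 and Eif4ebp2 did not pass the test. A gene was called when the adjusted p (Benjamini-Hochberg) of the edgeR quasi-likelihood test was under 0.05 over the 11636 genes kept by its expression filter, of which 6.9% were called higher and 7.43% lower. Levels are given in CPM, read counts relative to library sizes scaled within the tissue by the trimmed mean of M values, and folds are fitted values. Complete separation of the genotypes was seen for Eif4ebp1 upwards, as for 4.08% of the genes tested, and for Ddit4l and Castor2 downwards, as for 2.31%. In whole tissue, fewer cells of a type and less RNA per cell cannot be told apart.

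**Figure D1:**
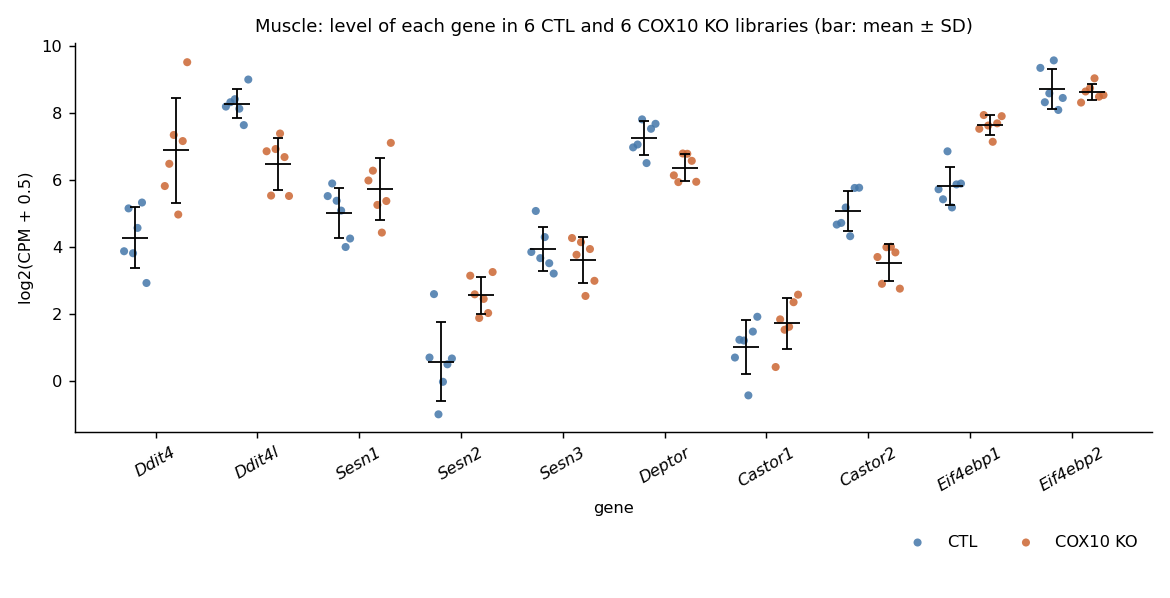
Level of the 10 genes in each of 6 CTL and 6 COX10 KO muscle libraries as log2(CPM + 0.5), with bars for the mean ± SD. The genotypes are separate for Ddit4l, Castor2 and Eif4ebp1, COX10 KO 6 at 728 CPM stands above the rest for Ddit4, and CTL 2 at 5.51 CPM lies among the COX10 KO values for Sesn2.

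The members of the REDD pair moved in opposite directions. Ddit4 (chr10:59949669-59951834, minus strand) ran from 7.07 to 39.5 CPM (median 18.6) in CTL and from 30.7 to 728 CPM (median 115) in COX10 KO muscle. In COX10 KO, 5 of 6 libraries exceeded the whole CTL range and COX10 KO 4, at 30.7 CPM, lay within it. The rise was 8.69-fold (log2 3.12 ± 0.64 SE, edgeR adjusted p = 0.00507, exact permutation p = 0.00649). The highest value, 728 CPM in COX10 KO 6, rests on 9233 reads, and leaving that library out gave 2.23 on the log2 scale (edgeR adjusted p = 0.00561).

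Ddit4l (chr3:137621612-137628333, plus strand) ran from 198 to 509 CPM (median 304) in CTL and from 45.3 to 166 CPM (median 108) in COX10 KO muscle. The genotypes did not overlap, and COX10 KO 6 and COX10 KO 2 were lowest, at 45.3 and 45.7 CPM. Ddit4l fell to 0.307 of CTL (log2 -1.70 ± 0.32 SE, edgeR adjusted p = 0.00285, exact permutation p = 0.00216, the smallest that 6 against 6 libraries allow). The log2 ratio of Ddit4 to Ddit4l within a library, each as CPM + 0.5, had a median of -3.94 (-6.07 to -2.31) in CTL and of 0.45 (-2.42 to 3.99) in COX10 KO, where all libraries except COX10 KO 4 exceeded the CTL range. This ratio and those below compare libraries, not the levels of 2 genes, and were given no test.

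Of the sestrins, Sesn2 alone was called. Sesn2 (chr4:132492032-132510501, minus strand), which responds to amino acid shortage and mitochondrial stress, had few reads: 16 over all CTL muscle libraries (0 to 5 each) and 284 over all COX10 KO libraries (7 to 114 each). It passed the expression filter in muscle through the COX10 KO libraries, the group where it was high, so its call is not independent of that filter. In thinned libraries, and with at least 10 counts in every library, it was filtered out and not tested. It ran from 0 to 5.51 CPM (median 0.997) in CTL and from 3.17 to 8.99 CPM (median 5.22) in COX10 KO. The CTL libraries lay below every COX10 KO library apart from the shallow CTL 2, whose 5.51 CPM are 3 reads. CTL 3 had 0 reads, which allows up to 1.35 CPM, and such limits cover counting error only, since reads carried no molecular identifiers.

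The rise of Sesn2 was 6.20-fold (log2 2.63 ± 0.57 SE, edgeR adjusted p = 0.00726, exact permutation p = 0.0108), and 3.07 on the log2 scale without CTL 2. Gm12981 overlaps Sesn2 on its strand, 9930024M15Rik overlaps Sesn1 and Gm48086 overlaps Eif4ebp2, while Gm9920 lies opposite Deptor. The strand setting of the counting is not given in the sources used here, so how reads were divided within these 4 pairs is uncertain.

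Sesn1 (chr10:41809935-41908424, plus strand), a p53 and FoxO target, ran from 15.4 to 58.8 CPM (median 37.2) in CTL and from 21 to 137 CPM (median 51.7) in COX10 KO muscle. The highest value was again COX10 KO 6, and 3 COX10 KO libraries exceeded the CTL range. Its log2 fold change of 0.93 ± 0.40 (SE) did not pass (edgeR adjusted p = 0.133) and was 0.39 without that library. Sesn3 (chr9:14275067-14333101, plus strand) ran from 8.70 to 33.1 CPM (median 13) in CTL and from 5.29 to 18.7 CPM (median 13.9) in COX10 KO, with a log2 fold change of -0.37 ± 0.31 (SE, edgeR adjusted p = 0.459). The ratio of Sesn2 to Sesn3 ran from -4.66 to -2.48 in CTL and from -2.26 to 0.26 in COX10 KO muscle on the log2 scale, without overlap. The gap was narrow, with -2.22 as the highest CTL and -2.12 as the lowest COX10 KO value at a pseudocount of 1. It rests on 0 to 5 reads of Sesn2 per CTL library, and how many other gene pairs separate in this way was not counted. For Sesn2 to Sesn1 it ran from -6.37 to -3.30 and from -3.86 to -1.98, and 2 of 6 COX10 KO libraries exceeded the CTL range.

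Of the CASTOR pair, Castor2 fell and Castor1 had few reads. Castor2 (chr5:134099711-134144343, plus strand) ran from 19.4 to 53.8 CPM (median 30.6) in CTL and from 6.23 to 15.5 CPM (median 13.1) in COX10 KO muscle. The genotypes did not overlap. Castor2 fell to 0.334 of CTL (log2 -1.58 ± 0.31 SE, edgeR adjusted p = 0.00390, exact permutation p = 0.00216). Castor1 (chr11:4218225-4222409, plus strand) had 1 to 6 reads per CTL library and 8 to 69 per COX10 KO library, and ran from 0.240 to 3.26 CPM (median 1.82) and from 0.830 to 5.44 CPM (median 2.81). Its log2 fold change of 0.99 ± 0.57 (SE) did not pass (edgeR adjusted p = 0.266). The log2 ratio of Castor1 to Castor2 ran from -4.75 to -3.49 in CTL and from -3.28 to -0.18 in COX10 KO muscle, but this separation depended on the pseudocount. With 0.1 CPM in place of 0.5 the lowest COX10 KO value (-3.75, COX10 KO 1 on 8 reads of Castor1) lay below the highest CTL value (-3.74, CTL 2 on 1 read).

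Deptor (chr15:55112317-55259271, plus strand) encodes an inhibitor found in both mTOR complexes. It ran from 89.9 to 223 CPM (median 158) in CTL and from 60.5 to 109.8 CPM (median 81.9) in COX10 KO muscle. Of the CTL libraries only CTL 4, at 89.9 CPM, lay within the COX10 KO range. Deptor fell to 0.526 of CTL (log2 -0.93 ± 0.25 SE, edgeR adjusted p = 0.0221, exact permutation p = 0.0108). The call was lost on leaving out any 1 of CTL 3, 5 or 6 or COX10 KO 1, 2, 5 or 6 (adjusted p of up to 0.0758), while the log2 fold change stayed between -1.06 and -0.77.

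Of the 4E-BPs, Eif4ebp1 rose and Eif4ebp2 did not pass. Eif4ebp1 (chr8:27260329-27276674, plus strand), which encodes 4E-BP1, ran from 35.6 to 115 CPM (median 54.9) in CTL and from 140.0 to 244 CPM (median 201) in COX10 KO muscle. The genotypes did not overlap, although CTL 3 at 115 CPM stood apart from the next CTL library at 58.7 CPM. The rise was 3.36-fold (log2 1.75 ± 0.25 SE, edgeR adjusted p = 4.31e-04, exact permutation p = 0.00216). Eif4ebp2 (chr10:61428491-61452661, minus strand) ran from 271 to 756 CPM (median 365) in CTL and from 316 to 522 CPM (median 383) in COX10 KO, with a log2 fold change of -0.20 ± 0.25 (SE, edgeR adjusted p = 0.659). The log2 ratio of Eif4ebp1 to Eif4ebp2 had a median of -2.73 (-4.39 to -1.73) in CTL and of -0.79 (-1.89 to -0.63) in COX10 KO muscle, and 5 of 6 COX10 KO libraries exceeded the CTL range.

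**Figure D2:**
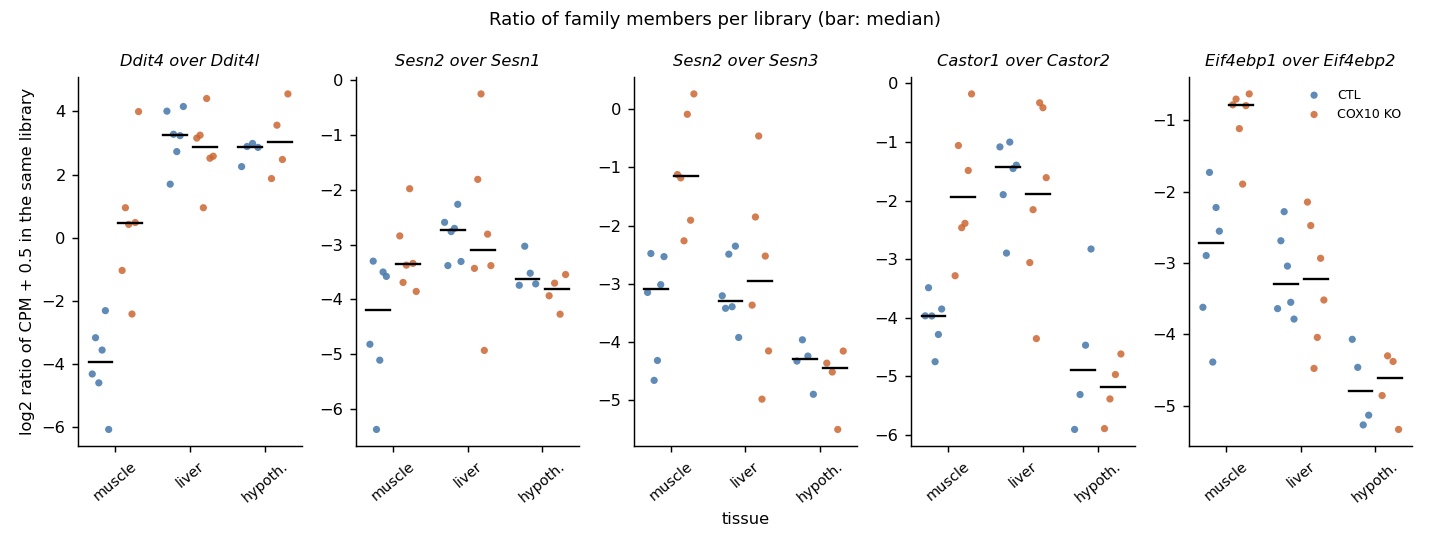
Log2 ratio of 2 family members, each as CPM + 0.5, in every CTL and COX10 KO library of the 3 tissues, with bars for medians. In muscle the genotypes are separate for Sesn2 to Sesn3 and, with this pseudocount but not with 0.1, for Castor1 to Castor2, while in liver and hypothalamus they overlap for each of the 5 pairs.

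By labelled sex, Ddit4 ran from 13.5 to 34.9 CPM in CTL and from 55.7 to 161 CPM in COX10 KO females, and from 7.07 to 39.5 CPM and 30.7 to 728 CPM in males. Eif4ebp1 ran from 42.3 to 115 CPM and 183 to 244 CPM in females, and from 35.6 to 58.7 CPM and 140.0 to 238 CPM in males. The difference of the genotype effect between the sexes was called by edgeR for 0% of 12065 genes in muscle (459 at an unadjusted p under 0.05) and 0% of 10030 in liver (122), and DESeq2 called none of the 10 genes in either tissue. For Ddit4 in muscle it was 1.22 ± 1.17 (SE, male minus female log2 fold change). With 3 against 3 libraries, males alone gave calls for Sesn2 and Eif4ebp1, and females alone for Ddit4, Ddit4l and Eif4ebp1.

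Around the 10 genes, 8 lists of the mTORC1 pathway held 70 other genes, of which 66 were tested in muscle, 8 rose and 6 fell. Of all genes tested in muscle, 6.9% were called higher and 7.43% lower, and these shares also apply to the list counts below. A single call in a list of 5 to 12 genes is not read as a result about that list. The kinase Mtor rose 1.75-fold (edgeR adjusted p = 0.0104), alone among 7 genes of mTORC1 and its assembly. Rhebl1, a Rheb-like GTPase, rose 1.80-fold (1 of 5 TSC and Rheb genes), Rragc, which encodes RagC, 2.54-fold (1 of 12 tested Rag, Ragulator and folliculin genes), and Seh1l, a GATOR2 subunit, 1.89-fold (1 of 11 GATOR and KICSTOR genes). None of 6 S6 kinase arm genes was called by edgeR. The median log2 fold changes of these lists ran from -0.23 to 0.30, against -0.03 over all genes tested. In liver 0 of 61 and in hypothalamus 0 of 67 tested genes of the 8 lists were called by edgeR. Over all genes the shares were 0.0206% higher and 0.0721% lower in liver, and 0% each way in hypothalamus.

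Among the partners of the 4E-BPs, 3 of 10 tested cap-binding and eIF4F genes rose and 2 fell (list median -0.04). The helicase Eif4a1 rose 2.41-fold (edgeR adjusted p = 0.00168), the cap-binding homologue Eif4e2 1.65-fold and the helicase cofactor Eif4h 1.65-fold. Pdcd4, an inhibitor of the helicase, fell to 0.574 of CTL, and the scaffold Eif4g1 to 0.471. Of 8 AMPK genes 3 fell (list median -0.33): the muscle gamma subunit Prkag3 to 0.107 of CTL (edgeR adjusted p = 0.000734), the upstream kinase Stk11 to 0.585 and Prkab2 to 0.537. Of 7 tested genes of the Akt arm and mTORC2 (list median 0.05), Akt1 rose 3.04-fold and Rictor, which defines mTORC2, fell to 0.463 of CTL.

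Pathways known to induce members of the set were read beside them. The lists were chosen with earlier results known, and the study had reported ATF genes and their targets as raised in this muscle. The counts of the ATF4 list are therefore not independent evidence. In the ATF4 arm 5 of 7 genes rose (list median 1.57), among them Trib3 (35.5-fold), Asns (23-fold), Ddit3 (4.93-fold) and Atf4 (2.59-fold). Of 11 glucocorticoid-responsive genes (list median 0.40), Mt2 (26.1-fold) and Pdk4 (6.10-fold) rose and the receptor gene Nr3c1 fell to 0.498 of CTL. Of 5 tested hypoxia-responsive genes (list median 1.06), Vegfa, Egln3 and Slc2a1 rose 2.09- to 2.34-fold. Of 7 tested p53 genes (list median 0.50) Cdkn1a rose (3.81-fold), and none of 5 FoxO factors and ligases was called by edgeR (list median 0.43).

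COX10 KO 6, the library with the highest Ddit4, Sesn1 and Sesn2, also had the highest sum of each of these lists except the ATF4 arm. FoxO factors and ligases summed to 3908 CPM there, to 578 to 2008 CPM in the other COX10 KO libraries and to 503 to 1217 CPM in CTL. Glucocorticoid-responsive genes summed to 4191 CPM there, to 954 to 2367 CPM in the other COX10 KO libraries and to 715 to 1071 CPM in CTL. Hypoxia-responsive genes summed to 901 CPM there, to 429 to 639 CPM in the other COX10 KO libraries and to 239 to 643 CPM in CTL. The p53 list summed to 1004 CPM there, to 778 to 993 CPM in the other COX10 KO libraries and to 526 to 982 CPM in CTL. COX10 KO 4, with the lowest Ddit4 and Sesn1 of its genotype, had the lowest COX10 KO sums of the FoxO, glucocorticoid, hypoxia and ATF4 lists. The part of these pathways in the members' levels was not tested.

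Markers of other cell states differed by genotype in the same libraries. Of 5 satellite cell and immature fibre markers Myog, Myh3 and Myh8 rose, and the list summed to 18.4 to 34.2 CPM in CTL and 189 to 283 CPM in COX10 KO. Of 9 tested macrophage markers Cd68, C1qa and Lyz2 rose, with sums of 124 to 384 CPM and 238 to 572 CPM. Of 5 fast fibre markers Myh4, Pvalb and Actn3 fell, with sums of 29178 to 83671 CPM and 19250 to 37819 CPM. Of 5 general muscle fibre markers Tnnt3 and Ttn fell, and none of 7 adipocyte markers was called by edgeR, with adipocyte sums of 263 to 5503 CPM and 798 to 2224 CPM. Of genes on the brain lists, Aqp4 and Slc1a3 of the astrocyte list (2 of 2 tested) fell to 0.264 and 0.368 of CTL, with list sums of 20.7 to 107 CPM and 6.62 to 17.5 CPM. Syt1 of the neuron list (1 of 2 tested) fell to 0.151. In muscle these genes are not read as marks of brain cells. The part of these cells and fibres in the 6 calls was not tested.

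Some members varied together within the genotypes. After the mean of each genotype was subtracted, log2(CPM + 0.5) over the 12 muscle libraries gave a Pearson correlation of 0.87 for Deptor and Castor2, of -0.83 for Sesn1 and Castor2, and of -0.71 for Ddit4 and Ddit4l. Values of 1 library share its depth and scaling, and no test was run. By the same measure, the closest of 6725 genes with a mean of at least 10 CPM were listed for each called member, again without a test, and r was taken again without the 2 libraries farthest from the median.

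Ddit4 was closest to Galnt15 (r = 0.93, then 0.81), Map3k6 (0.91, then 0.87) and Cep85l (0.90, then 0.87). The genes closest to Ddit4l were Rgma (r = 0.88, then 0.77), Pak1 (0.86, then 0.74) and Lrrc38 (0.85, then 0.74). Deptor was closest to Slc35c2 (r = 0.91, then 0.88), Tubb2b (0.90, then 0.83) and Stard10 (0.90, then 0.82). The genes closest to Castor2 were Arhgap6 (r = 0.95, then 0.96), Clcn1 (0.92, then 0.89) and Filip1l (0.92, then 0.92). Clcn1 encodes the muscle chloride channel. Eif4ebp1 was closest to Garem1 (r = 0.89, then 0.91), Sec63 (0.87, then 0.78) and Yars (0.86, then 0.80). Yars encodes tyrosyl-tRNA synthetase and Sec63 a part of the translocation machinery of the endoplasmic reticulum. Sesn2, with its few reads, was closest to Ahcyl2 (r = 0.90, then 0.78), Pon3 (0.90, then 0.68) and Fam3c (0.88, then 0.43).

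In liver none of the 10 genes was called. Over 9707 genes edgeR called 0.0206% higher and 0.0721% lower, while 484 genes had an unadjusted p under 0.05. By DESeq2, 62 genes were called and none of them was one of the 10. Without CTL 1 and CTL 4, whose reads went against their labelled sex, edgeR called none of the 7 members tested (adjusted p of 0.9998 for each). Ddit4 ran from 10.4 to 28.3 CPM (median 18.4) in CTL and from 12.3 to 22.1 CPM (median 15.1) in COX10 KO liver, overlapping throughout (log2 fold change -0.22 ± 0.27 SE). Deptor ran from 256 to 409.9 CPM (median 288) and from 239 to 1108 CPM (median 382). Its highest library, COX10 KO 3 on 682 reads, was followed by 487 CPM, and the log2 fold change was 0.57 ± 0.34 (SE).

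Eif4ebp1 ran from 28.8 to 52.6 CPM in CTL and from 21 to 57.8 CPM in COX10 KO liver, a log2 fold change of -0.16 ± 0.26 (SE). Eif4ebp2 ran from 203 to 559.6 CPM and from 159 to 554 CPM (-0.05 ± 0.33 SE). The sestrins overlapped too. Sesn1 ran from 12.2 to 14.3 CPM and from 8.35 to 18.6 CPM (-0.03 ± 0.24 SE). Sesn3 ran from 11.8 to 22 CPM and from 11.1 to 17.8 CPM (-0.29 ± 0.25 SE). Castor2 ran from 0.870 to 12.6 CPM and from 1.51 to 9.75 CPM (0.15 ± 0.49 SE), on 3 to 32 and 3 to 17 reads. The edgeR adjusted p was 0.997 for each of the 7 genes tested.

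Ddit4l, Sesn2 and Castor1 did not pass the expression filter in liver. Ddit4l had 43 reads in all CTL and 22 in all COX10 KO liver libraries, Sesn2 51 and 20, and Castor1 21 and 9. At this depth their genotype difference was not tested by edgeR in liver alone. Two-sided exact permutation p over the 10 genes ran from 0.171 (Sesn3) to 0.859 (Sesn1).

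In hypothalamus none of the 10 genes was called either. Over 13504 genes edgeR called 0% higher and 0% lower, while 211 genes had an unadjusted p under 0.05 and the count by DESeq2 was 0. In the order of their numbers, Ddit4 was at 42.4, 50.3, 68 and 66.4 CPM in CTL and at 45.6, 83.7, 66.9 and 94.5 CPM in COX10 KO. The genotypes overlapped (log2 fold change 0.36 ± 0.25 SE). Ddit4l was at 8.52, 6.37, 8.16 and 8.72 CPM in CTL and at 12.1, 6.63, 11.6 and 3.55 CPM in COX10 KO, whose spread took in the CTL range (0.10 ± 0.34 SE).

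Sesn2 was at 3.28, 4.03, 2.72 and 3.15 CPM in CTL and at 3.02, 2.21, 1.23 and 2.88 CPM in COX10 KO hypothalamus, on 12 to 70 and 7 to 14 reads. All COX10 KO values were below the CTL median, but the log2 fold change of -0.51 ± 0.35 (SE) did not pass. Eif4ebp2 was at 51.2, 38.6, 62.5 and 59.6 CPM in CTL and at 64.1, 47.5, 83.3 and 82.3 CPM in COX10 KO. The libraries numbered 2 were lowest in both genotypes, and 3 COX10 KO libraries exceeded the CTL range (0.39 ± 0.22 SE). Between libraries of the same number, Eif4ebp2 was higher in COX10 KO in 4 of 4 pairs, as for 9.94% of the genes tested, and Sesn2 was lower in 4 of 4, as for 10.2%. With the replicate number as a block neither passed (0.37, edgeR adjusted p = 0.441, and -0.50, 0.624).

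Castor2 was at 85.7, 86.9, 85.9 and 61.5 CPM in CTL and at 80.6, 89.8, 75.9 and 66.3 CPM in COX10 KO hypothalamus (-0.04 ± 0.18 SE). Deptor was at 89.1, 97, 79.5 and 58.1 CPM and at 84.7, 91.2, 69.1 and 69.9 CPM (-0.04 ± 0.20 SE). The libraries numbered 2 were highest for both of these genes in both genotypes. Sesn1 was at 50.1, 36.5, 36.5 and 47.5 CPM and at 53.3, 34.8, 32.9 and 39.1 CPM (-0.09 ± 0.21 SE), and Sesn3 at 75.5, 70.3, 60.5 and 109 CPM and at 72.1, 61.6, 78.2 and 59.9 CPM (-0.21 ± 0.21 SE). Castor1 and Eif4ebp1 did not pass the filter, with 77 and 31 and with 71 and 42 reads in all CTL and all COX10 KO libraries. Castor1, on 8 to 34 reads per CTL and 4 to 11 per COX10 KO library, was lower in COX10 KO in 4 of 4 same-numbered pairs. The same held for 10.2% of the genes tested, and Castor1 itself was not tested. Exact permutation p over the 10 genes ran from 0.114 (Sesn2) to 0.857 (Deptor), where 4 against 4 libraries allow no less than 0.0286.

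**Figure D3:**
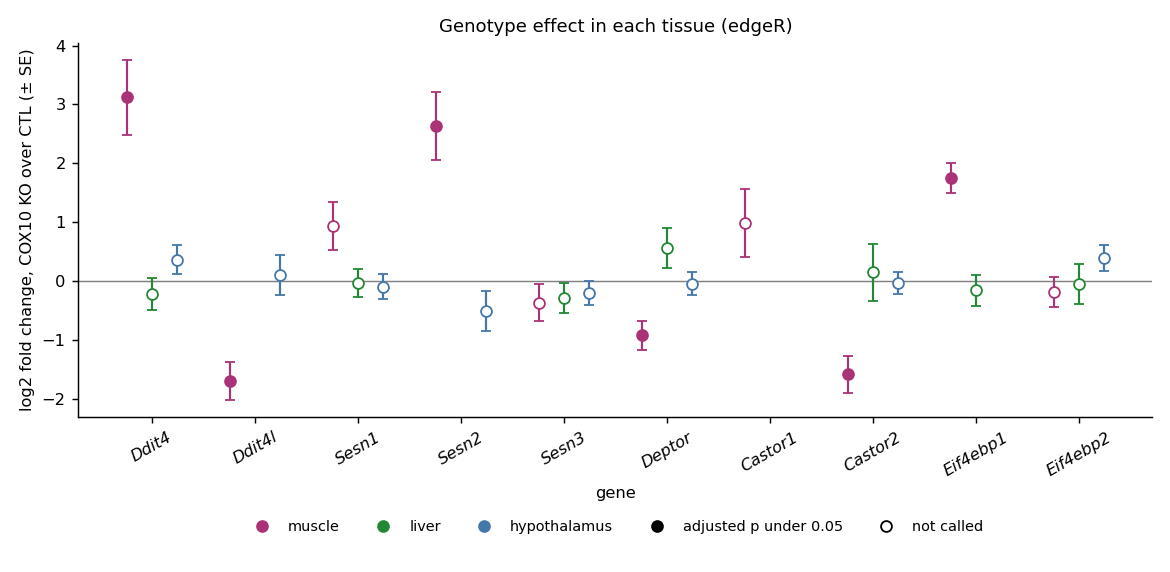
Log2 fold change of COX10 KO over CTL with its SE for each gene in muscle, liver and hypothalamus, with filled points for an edgeR adjusted p under 0.05. All 6 filled points are in muscle, 3 above and 3 below 0, and a gene that did not pass a tissue's expression filter has no point there.

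A call in muscle alone does not show that the tissues differ, so the difference of the genotype effects was tested in a joint fit of all 32 libraries over 15154 genes. Between muscle and liver, 2.84% of these genes were called, among them 3 of the 10. The log2 difference was 3.40 ± 0.67 (SE, adjusted p = 0.00381) for Ddit4, 1.97 ± 0.37 (SE, adjusted p = 0.00235) for Eif4ebp1 and -1.39 ± 0.40 (SE, adjusted p = 0.0496) for Deptor by edgeR. For Ddit4 it was 2.43 without muscle COX10 KO 6 (edgeR adjusted p = 0.0104). The Deptor call was lost without any 1 of 19 of the 32 libraries (liver CTL 1, 3, 5 and 6 and COX10 KO 2, 3 and 5, muscle CTL 3, 5 and 6 and COX10 KO 1, 2, 5 and 6, and hypothalamus CTL 2 and 3 and COX10 KO 2, 3 and 4), with an adjusted p of up to 0.0938. Without both liver CTL 1 and CTL 4 it was at -1.37 (edgeR adjusted p = 0.0773).

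Between muscle and liver, Castor2 differed by -1.69 ± 0.53 (SE, adjusted p = 0.0710), Ddit4l by -1.98 ± 0.65 (SE, adjusted p = 0.0866) and Sesn2 by 2.53 ± 0.83 (SE, adjusted p = 0.0866), none of which passed by edgeR, while DESeq2 called all 3 of them. Ddit4l and Sesn2 did not pass the filter in liver alone, with 43 and 51 reads in all CTL and 22 and 20 in all COX10 KO libraries. The liver side of their differences therefore rests on few reads. Between muscle and hypothalamus, with 0.891% of genes called by edgeR, Sesn2 was the only one of the 10 that passed, with a log2 difference of 3.18 ± 0.81 (SE, adjusted p = 0.0476). It was kept on leaving out liver CTL 1, 2, 4 or 5, liver COX10 KO 3, 4 or 6, muscle CTL 2 or muscle COX10 KO 3, and was lost without any 1 of the other 23 libraries (adjusted p of up to 0.134). Ddit4 was at 2.78 ± 0.72 (SE, adjusted p = 0.0531), Ddit4l at -1.72 ± 0.53 (SE, adjusted p = 0.136) and Eif4ebp1 at 1.43 ± 0.49 (SE, adjusted p = 0.189). Eif4ebp1 did not pass the filter in hypothalamus alone (71 CTL and 42 COX10 KO reads), so the hypothalamus side of its difference rests on few reads. Between liver and hypothalamus 0% of genes were called by edgeR, and DESeq2 called 5 genes and none of the 10. The contrasts share libraries.

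In CTL mice edgeR called 4 of the 10 genes between muscle and liver in the joint fit, against 55.5% of all genes. It called 5 between muscle and hypothalamus, against 64%, and 7 between liver and hypothalamus, against 69.4%, which puts the members' shares near or below those of all genes. CPM in this and the next paragraphs are scaled over all 32 libraries. Ddit4l had 218 to 549 CPM in CTL muscle, 0.857 to 3.40 CPM in liver and 4.18 to 5.68 CPM in hypothalamus. Muscle was 198-fold above liver (edgeR adjusted p = 1.86e-15) and 67.5-fold above hypothalamus, and liver was below hypothalamus (log2 difference -1.56). Ddit4 had 7.63 to 43.4, 12.3 to 33.9 and 28.3 to 45 CPM, and no pair of tissues passed the edgeR test (adjusted p = 0.989, 0.235 and 0.189).

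The 4E-BPs were lowest in hypothalamus. Eif4ebp1 had 42.5 to 126 CPM in CTL muscle, 34 to 62.8 CPM in liver and 0.749 to 1.72 CPM in hypothalamus, so that muscle was 57.5-fold and liver 40.8-fold above hypothalamus. Eif4ebp2 had 298 to 913, 237 to 659 and 25.4 to 41.4 CPM, with muscle 14.7-fold and liver 12.6-fold above hypothalamus. Muscle and liver did not differ by the edgeR test for Eif4ebp1 (adjusted p = 0.109) or Eif4ebp2 (0.558).

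Castor2 was lowest in liver, with 1.02 to 14.8 CPM, against 23.5 to 58.9 CPM in muscle (9.95-fold above liver) and 39.2 to 57.2 CPM in hypothalamus, which did not differ from muscle by the edgeR test (adjusted p = 0.233). Deptor was highest in liver, with 302 to 486 CPM, then in muscle with 109 to 244 CPM (log2 difference of muscle minus liver -1.05) and lowest in hypothalamus with 37 to 63.7 CPM (muscle 3.29-fold above). Castor1 passed the edgeR test between no pair of tissues in the reported fit (adjusted p = 0.255, 0.572 and 0.0590). Liver was called below hypothalamus for it by DESeq2 (-1.58), by edgeR with RLE factors (-1.56, adjusted p = 0.0353) and with library size alone (-2.24, adjusted p = 0.00337), and without any 1 of liver CTL 3 or 4, liver COX10 KO 4, muscle CTL 4, muscle COX10 KO 1 or hypothalamus CTL 1 or 2.

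Sesn3 was highest in hypothalamus, with 40.02 to 69.1 CPM, against 9.39 to 33.3 CPM in muscle and 13.8 to 26.4 CPM in liver, which did not differ from each other by the test (edgeR adjusted p = 0.469). Sesn1 was lowest in liver, with 14.5 to 17 CPM, against 17 to 59.1 CPM in muscle (log2 difference 1.23) and 24 to 33.4 CPM in hypothalamus (liver minus hypothalamus -0.81). Sesn2 did not differ by the test between any pair (adjusted p = 0.308, 0.144 and 0.698). Contrasts with hypothalamus depend on the scaling, since the median over all genes of muscle minus hypothalamus was -0.28 with these factors and -1.14 with library size alone. With library size alone the difference for Sesn1 turned from 0.41 to -0.41, and Ddit4, Sesn2 and Castor2 were called lower in muscle than in hypothalamus.

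**Figure D4:**
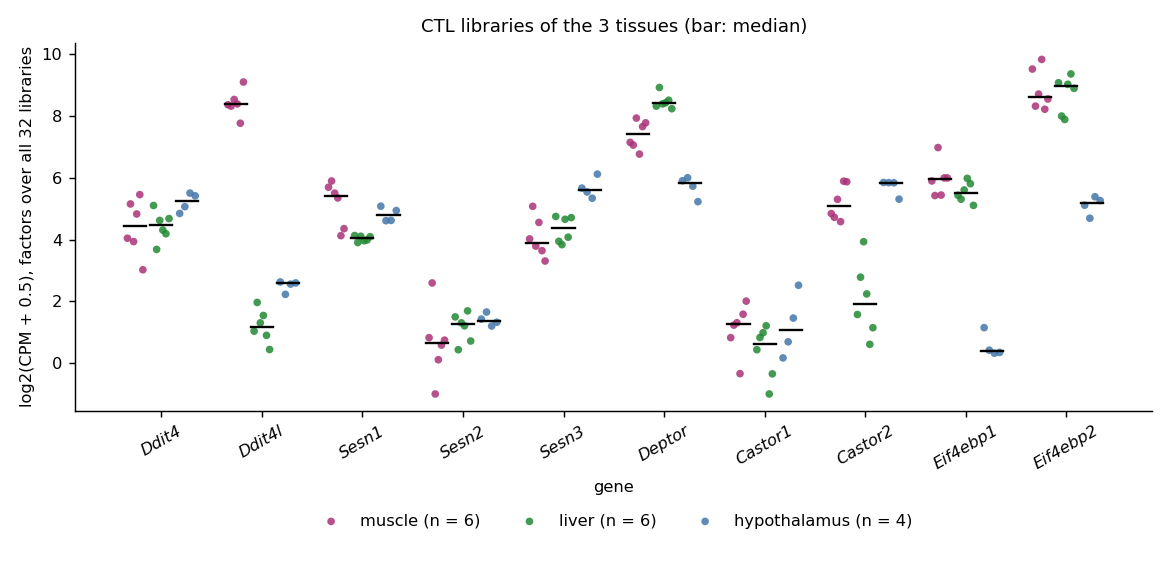
Level of the 10 genes in the CTL libraries of muscle (6), liver (6) and hypothalamus (4), as log2(CPM + 0.5) scaled over all 32 libraries, with bars for medians. Ddit4l stands apart in muscle, Eif4ebp1 and Eif4ebp2 are lowest in hypothalamus, Deptor is highest and Castor2 lowest in liver.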

How the data were processed

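RNA from muscle, liver and hypothalamus was sequenced from the 3′ end (QuantSeq FWD, single-end). The authors trimmed the reads with BBDuk, and the submitters' processing notes name STAR 2.5.0a, HTSeq 0.6.1 and GRCm38.p6. The deposited files hold raw counts per gene for 55401 identifiers, and the annotation gave a symbol for 55141 of them. The values are whole read counts with no normalization by the authors. No 2 libraries were identical.

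Separate fits for the 3 tissues were made with edgeR 4.0.16 under R 4.3.3 (filterByExpr, TMM factors, two-sided quasi-likelihood F test), adjusting for labelled sex except in hypothalamus, and Benjamini-Hochberg adjustment over all genes tested. Differences between tissues came from contrasts of 1 joint fit of 32 libraries, and sex differences from the genotype by sex interaction. Exact two-sided permutation tests of CPM used scipy 1.17.1 in Python 3.11.15. The code was tested on simulated data with known changes. Sources conflict on sex: the labels give females in muscle and liver, whereas the study's methods name males unless noted.

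All 10 members were named in every tissue, list genes were named when called (at most 4 of a list by smallest p), and 3 correlated genes were named for each called member. Eif4g1 was added after its value was seen. The members, lists and rule were chosen with earlier results of these data known. Alternatives were DESeq2 1.42.0, RLE factors, library size alone, other filters, thinned libraries, no sex term, each sex alone, a replicate block, and leaving out single libraries, the liver CTL libraries 1 and 4 or the hypothalamus libraries numbered 1.

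Replicate numbers were checked for pairing by correlating deviations from the genotype means. In hypothalamus 4 of 4 pairs exceeded 0.1 (0.339 to 0.885), so that the numbers may pair the samples, although no label states a pairing. For 3 of 4 the correlation was highest with their own number, while number 3 had 0.571 with its own and 0.627 with another. The reported hypothalamus fit and permutation tests did not use the numbers, and the replicate block was run as an alternative. In muscle 1 of 6 pairs (-0.238 to 0.237) and in liver 2 of 6 (-0.365 to 0.228) did.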

Additional observations from a re-analysis of the deposited data

Results flagged for a closer look

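A library stood apart from the rest of its group, by Dixon's criterion, in 7 of 60 groups tested (10 genes in 6 groups of libraries). For independent groups of normally distributed values chance gives about 1 in 20. These CPM need not be normal, and the groups share libraries, so the count is not read as an excess. In muscle these were Ddit4 in COX10 KO 6 (728 CPM, next 161 CPM), Sesn2 in CTL 2 (5.51 CPM on 3 reads, next 1.12 CPM) and Eif4ebp1 in CTL 3 (115 CPM, next 58.7 CPM). In liver, Deptor stood apart in CTL 2 (410 CPM, next 310 CPM) and in COX10 KO 3 (1108 CPM, next 487 CPM). In hypothalamus, Castor2 was low in CTL 4 (61.5 CPM, next 85.7 CPM) and Eif4ebp1 high in CTL 1 (2.58 CPM, next 1.27 CPM).

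The genotype effect differed between tissues by the joint edgeR fit for 4 genes. Between muscle and liver the log2 difference was 3.40 for Ddit4, 1.97 for Eif4ebp1 and -1.39 for Deptor, and between muscle and hypothalamus it was 3.18 for Sesn2. The call of Deptor was lost without any 1 of 19, and that of Sesn2 without any 1 of 23, of the 32 libraries. Sesn2 was also not called with RLE factors (edgeR adjusted p = 0.0669).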

How the results depend on the processing

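Of 2158 comparisons of a single value with an alternative, 2035 kept direction and side of the threshold, 29 turned direction, 61 lost and 33 gained a call. In muscle no member was called lower in males alone (0) and 1 was in females alone. Ddit4 in males alone was at 3.72 (edgeR adjusted p = 0.0658), Sesn2 in females alone at 2.20 (0.208), and Sesn1 was called with no filter (0.99, 8.68e-04). The median log2 fold change over the 11636 genes in muscle was -0.03, -0.04 with RLE factors and 0.17 with library size alone, and by DESeq2 it was -0.30 over another set of 14362 genes. Each of these kept the 6 calls. Over all genes 1668 were called in muscle, 281 in males alone and 297 in females alone. With the replicate block 987 genes were called, and 3 members higher and 3 lower, with Ddit4 at 2.43 (adjusted p = 0.0292) and Deptor at -0.89 (0.0438). In hypothalamus the replicate block called 2 genes and 0 members, and it changed no call of a member in any tissue. Of the 10 genes, 6 differed in genotype effect between muscle and liver by DESeq2 (1163 of 14714 genes in all) and 3 by edgeR (430 of 15154). Between muscle and hypothalamus 3 did by DESeq2 (369 of 15783) and 0 with RLE factors (130 of 15154). There, 2 did with no filter (179 of 27565) and 2 without liver CTL 1 and 4 (186 of 15497). On leaving out single libraries 0 to 2 did (93 of 15603 to 167 of 15641), and 1 in the reported fit (135 of 15154). Between CTL muscle and hypothalamus 8 differed with library size alone (10646 of 15154) and 5 as reported (9691 of 15154). The cause of these changes was not tested.

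The values that turned direction were all uncalled. They were, in liver, Ddit4 in males alone (0.10), Sesn1 in females alone (0.10), Eif4ebp2 in females alone (0.10) and without CTL 1 and 4 (0.18), in hypothalamus Ddit4l without both libraries numbered 1 (-0.074), and Sesn1 between CTL muscle and hypothalamus with library size alone (-0.41). On leaving out single libraries the range crossed 0 for Eif4ebp2 in muscle (-0.32 to 0.050), for Sesn1 (-0.17 to 0.11), Castor2 (-0.13 to 0.58) and Eif4ebp2 (-0.39 to 0.14) in liver, and for Ddit4l (-0.12 to 0.35), Deptor (-0.17 to 0.053) and Castor2 (-0.14 to 0.027) in hypothalamus. Between CTL tissues it did for Ddit4 (-0.19 to 0.27) and Eif4ebp2 (-0.046 to 0.40) in muscle against liver, and for Castor1 (-0.83 to 0.33) in muscle against hypothalamus. Depth limits Sesn2 and Castor1 most: Sesn2 was filtered out, and not tested, in thinned muscle libraries and with at least 10 counts in every library.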
